A study of Mus musculus with 18 samples.

Results

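The comparison described here asks how the effect of moving a Wnt pulse changed in mouse gastruloids between 72 and 96 h after aggregation. It was taken on raw counts as the early-minus-control difference at 96 h minus the early-minus-control difference at 72 h, over 12 of the 18 libraries of the series, 3 in each of 4 groups, and across all genes. Gastruloids are aggregates of mouse embryonic stem cells that elongate and pattern themselves, and CHIR is an inhibitor of the kinase GSK3 that switches on Wnt signalling. All 4 groups were wild type (WT), of strain 129/SVEV, and received CHIR for 24 h. The control arm received it between 48 and 72 h, and was collected at 72 h, as the pulse ended (72h_CTL), and at 96 h, a day later (96h_CTL). The early arm received it between 24 and 48 h, and was collected at 72 h, a day after the pulse (72h_Early), and at 96 h, 48 h after it (96h_Early). The same number can be read as the change from 72 to 96 h in the early arm, called the early step here, minus the change from 72 to 96 h in the control arm, called the control step. This early-minus-control value is called the step difference and is given in log2 units with its SE. A positive step difference means that the early arm gained on the control arm. The control step covers the first day after CHIR and the early step the second, so the timing of the pulse and the time since it ended cannot be told apart in this comparison.

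As background, Wnt signalling acts through β-catenin and TCF/LEF factors, and its feedback genes, such as Axin2 and Sp5, follow its activity closely. In the gastrulating embryo, Wnt and Nodal signalling together turn on the primitive streak genes T, Eomes and Mixl1 in pluripotent epiblast cells. Cells that leave the streak lose epithelial junctions and become paraxial mesoderm under Tbx6, while the segmentation clock cycles and retinoic acid and Hox genes mark the growing trunk.

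Each library was made from gastruloids pooled in a tube, and the labels do not state that replicates are independent cultures; p-values therefore cover only the variation among these libraries, some or all of which may be technical. In bulk samples, fewer cells of a type and less RNA per cell cannot be told apart. Total counts ranged from 14841728 to 24536538 per library. The control libraries numbered 3 stood apart from their groups: the chi-square of counts per degree of freedom was 16.2 to 28.4 in the pairs that held one of them and 1.41 to 7.91 in all other pairs within a group. Where the step difference of a named gene moves by over 1.5 times, or changes its call, without the 3 control libraries of that number, that value is given too. These 3 include the 48 h control library, collected before the control pulse, for which no chi-square was taken. Libraries of both arms at 48 h also entered the fit. Levels are depth-scaled counts (CPM, with TMM factors), which compare a gene between libraries and not with other genes.

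Of 16041 genes tested with edgeR's quasi-likelihood test, 5383 (33.6%) had a step difference at an adjusted p under 0.05. The step difference was positive for 2858 genes (17.8%) and negative for 2525 (15.7%), and it was at least 2-fold for 1865, of which 898 were positive and 967 negative. More genes passed the test in the control arm than in the early arm. The control step was called for 8802 genes (54.9%), 4410 of them higher (27.5%) and 4392 lower (27.4%) at 96 h. The early step was called for 5656 genes (35.3%), with 2826 higher (17.6%) and 2830 lower (17.6%). The spread was estimated over all groups together, so the control libraries numbered 3 also bear on early-step calls. Without those 3 libraries the early step was called for 3828 genes higher and 3686 lower. The control step was then called for 4646 higher and 4458 lower, a smaller lead over the early arm. Changes of at least 2-fold numbered 2676 in the control arm and 1151 in the early arm. At 72 h the arms differed for 7196 genes (44.9%), with 3473 higher (21.7%) and 3723 lower (23.2%) in the early arm. At 96 h they differed for 9482 (59.1%), with 4726 higher (29.5%) and 4756 lower (29.6%).

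Each called gene was assigned to the arm that moved it, by which of the steps passed the test. The control arm alone moved 2883 of the 5383 genes (53.6%), 1451 with a positive and 1432 with a negative step difference. The early arm alone moved 791 genes (14.7%), 431 positive and 360 negative. Both arms moved in opposite directions for 624 genes (11.6%), 366 positive and 258 negative. Both moved the same way and by different amounts for 906 genes (16.8%), 502 positive and 404 negative. For the remaining 179 genes (3.3%) neither step passed the test by itself; Lypd6b, at 1.30 ± 0.38 (adjusted p = 0.013), and Fgd5, at -0.99 ± 0.36 (adjusted p = 0.042), were examples. The call of Fgd5 was lost in 10 of 12 fits with a library left out and kept without either control library numbered 3, and Lypd6b was at 2.04 without the 3 control libraries of that number. The control step was the larger in size for 4148 of the called genes (77.1%), against 64.3% of all genes tested. Without the 3 control libraries numbered 3 the opposite class held 1033 genes and the same-direction class 1510. The early-arm class then held 1086 genes and the control-arm class 2839.

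**Figure D1:**
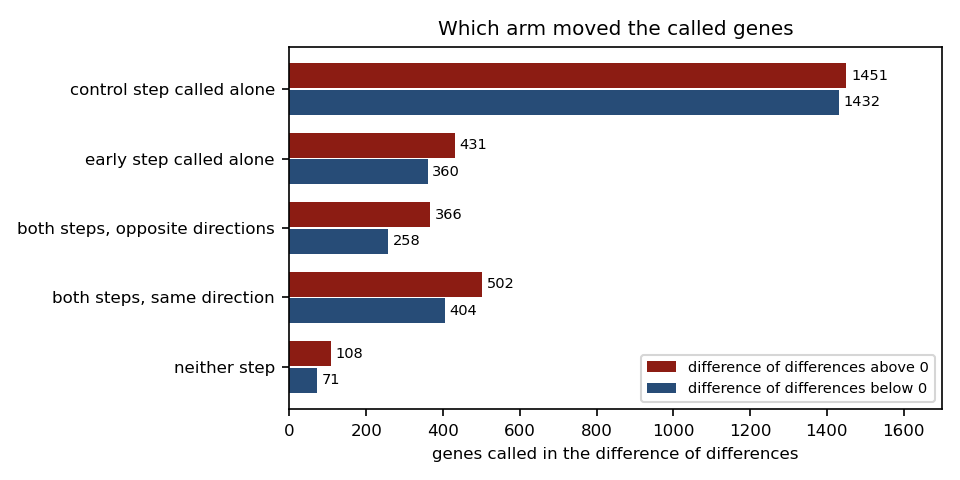
Number of genes with a called step difference in each class of arm movement, as horizontal bars coloured by the sign of the step difference. The control-arm bars, 1451 positive and 1432 negative genes, are the longest, and the early arm alone accounts for 431 and 360.

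**Figure D2:**
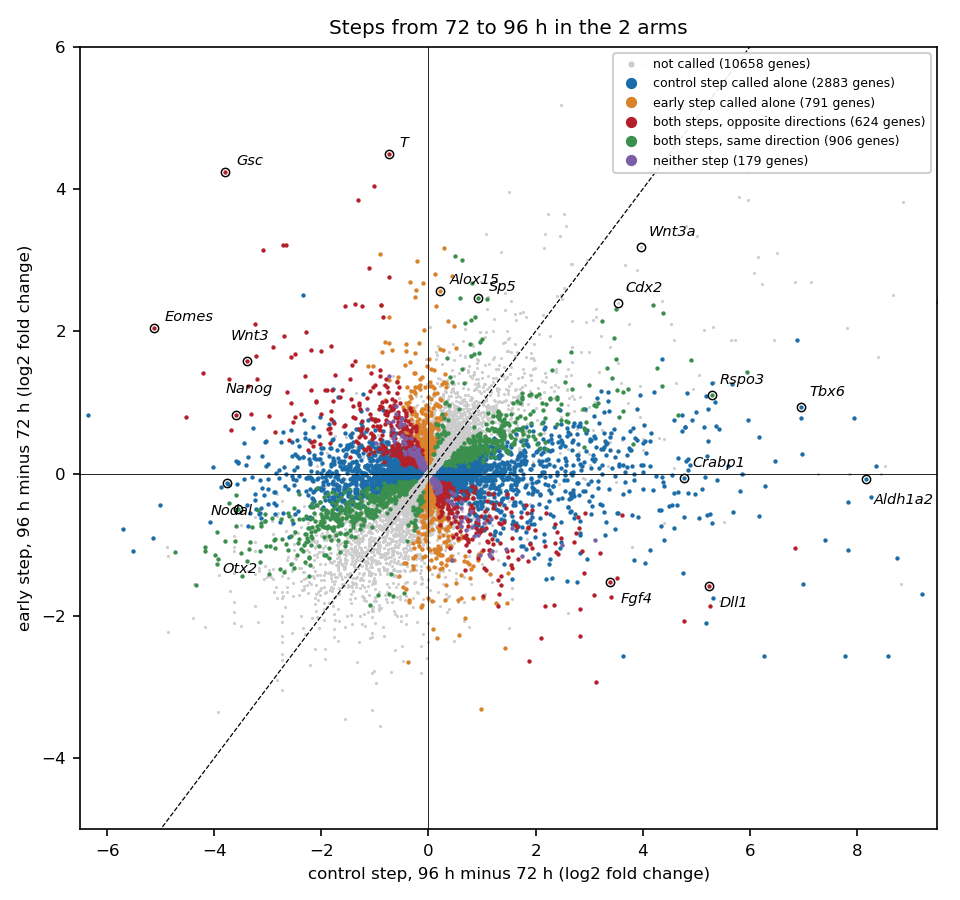
Control step (horizontal axis, log2) against early step (vertical axis, log2) for every tested gene, 1 point a gene, coloured by class, with the dashed line marking equal steps and 9 genes outside the axes. Called genes spread mainly along the horizontal axis, and the opposite-moving genes fill the upper left and lower right.

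More of the called genes had a gap between the arms that passed the test only at 96 h than only at 72 h. Among the called genes, 2417 differed between the arms at 96 h and not at 72 h, and 949 at 72 h and not at 96 h. Another 1275 differed at both ages with the same sign, 615 differed at both with the sign turned, and 127 passed the test at neither age. Whether the gap of the 1275 widened or narrowed was not counted. The early-arm class ran the other way. There, 239 positive and 165 negative genes had a gap only at 72 h, against 82 and 85 only at 96 h. The sign turned most often among genes whose arms moved in opposite directions, with 194 of the 366 positive and 105 of the 258 negative ones.

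Genes of the paraxial mesoderm and its clock rose in the control arm. Of 13 presomitic mesoderm genes tested, 10 rose and 0 fell in the control arm, and 2 rose and 3 fell in the early arm. Of the 13, 11 had a negative step difference and the other 2, Msgn1 and Pcdh8, were not called, with a median of -4.18 against 0.02 over all genes. The list's median step was 5.21 in the control arm and 0.46 in the early arm. Pcdh8 was called, at -0.47, without the control libraries numbered 3. Tbx6 (ENSMUSG00000030699.16, chr7:126781483-126785560, + strand), the T-box factor that directs cells to paraxial mesoderm, stood at 1.49, 1.98 and 1.3 CPM in the control libraries at 72 h and at 243, 261 and 98.5 at 96 h. In the early arm it stood at 0.546, 0.53 and 0.656 CPM at 72 h and at 1.6, 0.90 and 0.809 at 96 h. Only the control libraries at 96 h were high, and the groups of that arm did not overlap. The step difference of Tbx6 was -6.02 ± 1.06 (adjusted p = 2.5e-04), with a control step of 6.96 ± 0.34 and an early step of 0.94 ± 0.74 (adjusted p = 0.35).

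The clock genes followed the same course. Hes7, the oscillating repressor of the clock, rose in the control arm from 0.107, 0.417 and 0.715 CPM to 117, 119 and 132, and its early libraries held 0.149, 0.204 and 0.179 CPM at 72 h and 0.332, 0.0947 and 0 at 96 h. Lfng, a glycosyltransferase that tunes Notch in the clock, went from 0.746, 1.2 and 1.3 CPM to 48.7, 51.9 and 18.5 in the control arm. Early libraries of Lfng held 2.08, 1.75 and 2.03 CPM and then 2.1, 2.37 and 2.48. The step differences were -8.58 ± 1.14 (adjusted p = 1.4e-05) for Hes7 and -4.96 ± 0.52 (adjusted p = 9.2e-07) for Lfng. Of 12 Notch and clock genes, 10 had a negative step difference, Hey2 was not called, and Hes1, a Notch effector of many tissues, had a positive one, described with the opposite-moving genes. The receptor Notch1 rose by 2.93 ± 0.19 in the control arm, from 39.8, 38 and 37.6 to 332, 376 and 172 CPM, and its early step was -0.25 ± 0.19 (adjusted p = 0.32). The Wnt agonist Rspo3 rose in both arms, by 5.29 ± 0.18 in the control arm and by 1.11 ± 0.26 in the early arm, and its step difference was -4.18 ± 0.35 (adjusted p = 4.9e-08). Msgn1, a bHLH factor of the presomitic mesoderm, summed to 19 counts in the control libraries at 72 h and 9293 at 96 h, and to 1 and 7 counts in the early libraries. Its control step was called and its step difference was not (adjusted p = 0.61). The 96 h control library numbered 3 was lower than the other two in Tbx6, Lfng and Notch1 and not in Hes7. Without the 3 control libraries of that number the step differences were -6.24 for Tbx6, -5.42 for Lfng and -9.10 for Hes7.

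Retinoic acid genes shared a negative step difference, mainly through the control arm. All 10 tested had one, 5 through the control arm alone and Rara, a receptor, through the early arm alone; the list had a median step difference of -3.06, a control median of 3.43 and an early median of -0.10. Aldh1a2 (ENSMUSG00000013584.5, chr9:71215789-71296243, + strand), which makes retinoic acid in the trunk mesoderm, rose in the control arm from 1.07, 0.938 and 1.17 CPM to 413, 455 and 41.8. The early libraries of Aldh1a2 stayed between 0.805 and 1.38 CPM at both ages. Its step difference was -8.25 ± 2.00 (adjusted p = 0.0038), and -8.84 without the control libraries numbered 3, of which the one at 96 h was far below the other two. Crabp1, which binds retinoic acid in the cytoplasm, rose from 4.64, 3.7 and 5.52 CPM to 92.1, 95.9 and 191 in the control arm, and its early groups, at 6.8, 6.88 and 7.45 (72 h) and 6.69, 5.59 and 8.03 (96 h), overlapped. For Crabp1 the control library numbered 3 was the highest at 96 h, the reverse of Aldh1a2. Crabp2 had a step difference of -3.59 ± 0.20 (adjusted p = 2.7e-10), with groups of 15.1, 15.9 and 23.2 (72 h) and 165, 167 and 227 (96 h) CPM in the control arm. Cyp26a1, the enzyme that breaks retinoic acid down, rose in both arms, by 3.72 ± 0.25 in the control arm and 1.18 ± 0.26 in the early arm, and its step difference was -2.53 ± 0.37 (adjusted p = 4.1e-05). Without the control libraries numbered 3, when 11 genes were tested, the list's median was -2.08.

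Hox genes rose in the control arm. All 12 tested genes of groups 1 to 4 and all 12 of groups 5 to 9 had a called control step upward, and 6 and 7 of them had a called negative step difference. Of 15 names in groups 5 to 9, only these 12 passed the filter on low counts. Their median was 0.0873 CPM in the control arm at 72 h, and 0.0588 and 0.0359 in the early arm at 72 and 96 h. Genes this low pass mainly through the 96 h control libraries, so the filter largely set the direction of their control step. It bears on the sign of their step difference in the same way. The median step difference was -2.85 in groups 1 to 4 and -8.49 in groups 5 to 9. With genes near 0 counts set to a floor of 3 counts over the group, the latter median was -7.75. In the early arm, levels of groups 5 to 9 were near 0, with sums of 2.26 to 3.14 CPM at 72 h and 1.37 to 3.04 at 96 h. Groups 1 to 4 summed to 21.2 to 27.6 CPM at 72 h and 27.1 to 61.8 at 96 h there. The errors were wide. Hoxb9 went from 0.0533, 0.104 and 0.715 CPM to 41.3, 46 and 395 in the control arm, and its early libraries held 0.347, 0.407 and 0.298 and then 0.221, 0.0474 and 0.0578. The control library numbered 3 held by far the most Hoxb9 at both ages. Its step difference of -10.90 ± 3.97 (adjusted p = 0.042) lost its call in 8 of 12 fits with a library left out. The call was kept only without a 96 h control library or without the 72 h control library numbered 3. Hoxb4 rose from 0, 0.208 and 1.04 to 41.9, 47.8 and 55.9 CPM in the control arm, with a step difference of -6.71 ± 1.52 (adjusted p = 0.0023). Hoxb1, an anterior member, was already at 19, 29.9 and 164 CPM in the control libraries at 72 h, with the third far above the others, and reached 399, 404 and 279 at 96 h. The early libraries of Hoxb1 went from 5.85, 5.13 and 7.27 to 24.2, 10.2 and 14.5 CPM, and its step difference was -0.94 ± 0.84 (adjusted p = 0.42). Without the 72 h control library numbered 3 it was -2.45 and passed the test, and without all 3 of that number -2.61 (adjusted p = 1.0e-07). Without the 3 control libraries of that number, 11 genes in each list had a negative step difference, with a median of -5.38 in groups 1 to 4.

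Genes of the mesenchymal state also rose in the control arm, while those of the somite and of neural progenitors did so only in part. Of 8 somite genes, 4 rose and 1 fell in the control arm. A negative step difference was called for 4, among them Tcf15, which fell only in the early arm by this test. Only Fst, the activin antagonist follistatin, had a positive one. Of 13 mesenchymal genes, all 13 rose in the control arm (median 1.38) and 8 had a negative step difference, with a median of -1.44. N-cadherin, Cdh2, rose from 26.1, 34.3 and 41.7 CPM to 268, 279 and 228 in the control arm and from 17.2, 16.1 and 17 to 27, 28.1 and 27.7 in the early arm, with a step difference of -2.21 ± 0.16 (adjusted p = 1.4e-08). Zeb1, a repressor of epithelial genes, rose by 2.91 ± 0.14 in the control arm and by 0.64 ± 0.17 in the early arm. Pdgfra, a receptor of mesodermal cells, went from 1.65, 2.29 and 1.62 CPM to 94.7, 101 and 34.5 in the control arm and had a step difference of -4.36 ± 0.59 (adjusted p = 1.7e-05). Of 9 neural genes, 4 rose in the control arm and 2 fell in the early arm. A negative step difference was called for 5: Sox1, Neurog2, Hes5, Pax6 and Tubb3, the last through the early arm alone. For Sox1 the value was -2.70 ± 1.00 (adjusted p = 0.045) over all libraries, and 1 library stood apart, with 1.91, 1.57 and 14.6 CPM in the control libraries at 96 h. Without the library numbered 3 it was -0.99 and not called, without all 3 control libraries of its number it was -1.35 (adjusted p = 0.017), and the call was lost in 9 of the 12 fits with a single library left out. Both arms held low levels of Pax6, and the control groups overlapped, at 0.32, 0.104 and 0.65 (72 h) and 1.1, 0.543 and 1.37 (96 h) CPM. Sox4, a factor of differentiating progenitors, rose from 31.3, 32.8 and 30.8 to 131, 134 and 186 CPM in the control arm, while its early step was -0.23 ± 0.10 (adjusted p = 0.086).

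Other genes, outside the lists described so far, also rose more in the control arm. Of those given here, Slc2a1 and Cxcr4 belong to lists described below. H19, an imprinted long noncoding RNA, rose in the control arm from 1.49, 1.72 and 1.23 CPM to 29.2, 38.9 and 45.7, and its early libraries held 3.52, 3.38 and 3.64 (72 h) and 3.26, 2.89 and 2.66 (96 h). Arl4d, a small GTPase of the ARF family, rose from 1.49, 1.35 and 1.17 to 67, 60.9 and 20.8 CPM and had a step difference of -5.78 ± 0.53 (adjusted p = 1.7e-07). Both stood higher in the early arm at 72 h and lower at 96 h. Slc2a1, the glucose transporter GLUT1, rose from 190.3, 188 and 332 CPM to 1204, 1143 and 1813 in the control arm and from 270.3, 265 and 266 to 373, 317 and 358 in the early arm, with a step difference of -2.17 ± 0.25 (adjusted p = 2.4e-06). The chemokine receptor Cxcr4 rose by 5.43 ± 0.24 in the control arm, and its early step was 0.63 ± 0.27 (adjusted p = 0.077).

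**Figure D3:**
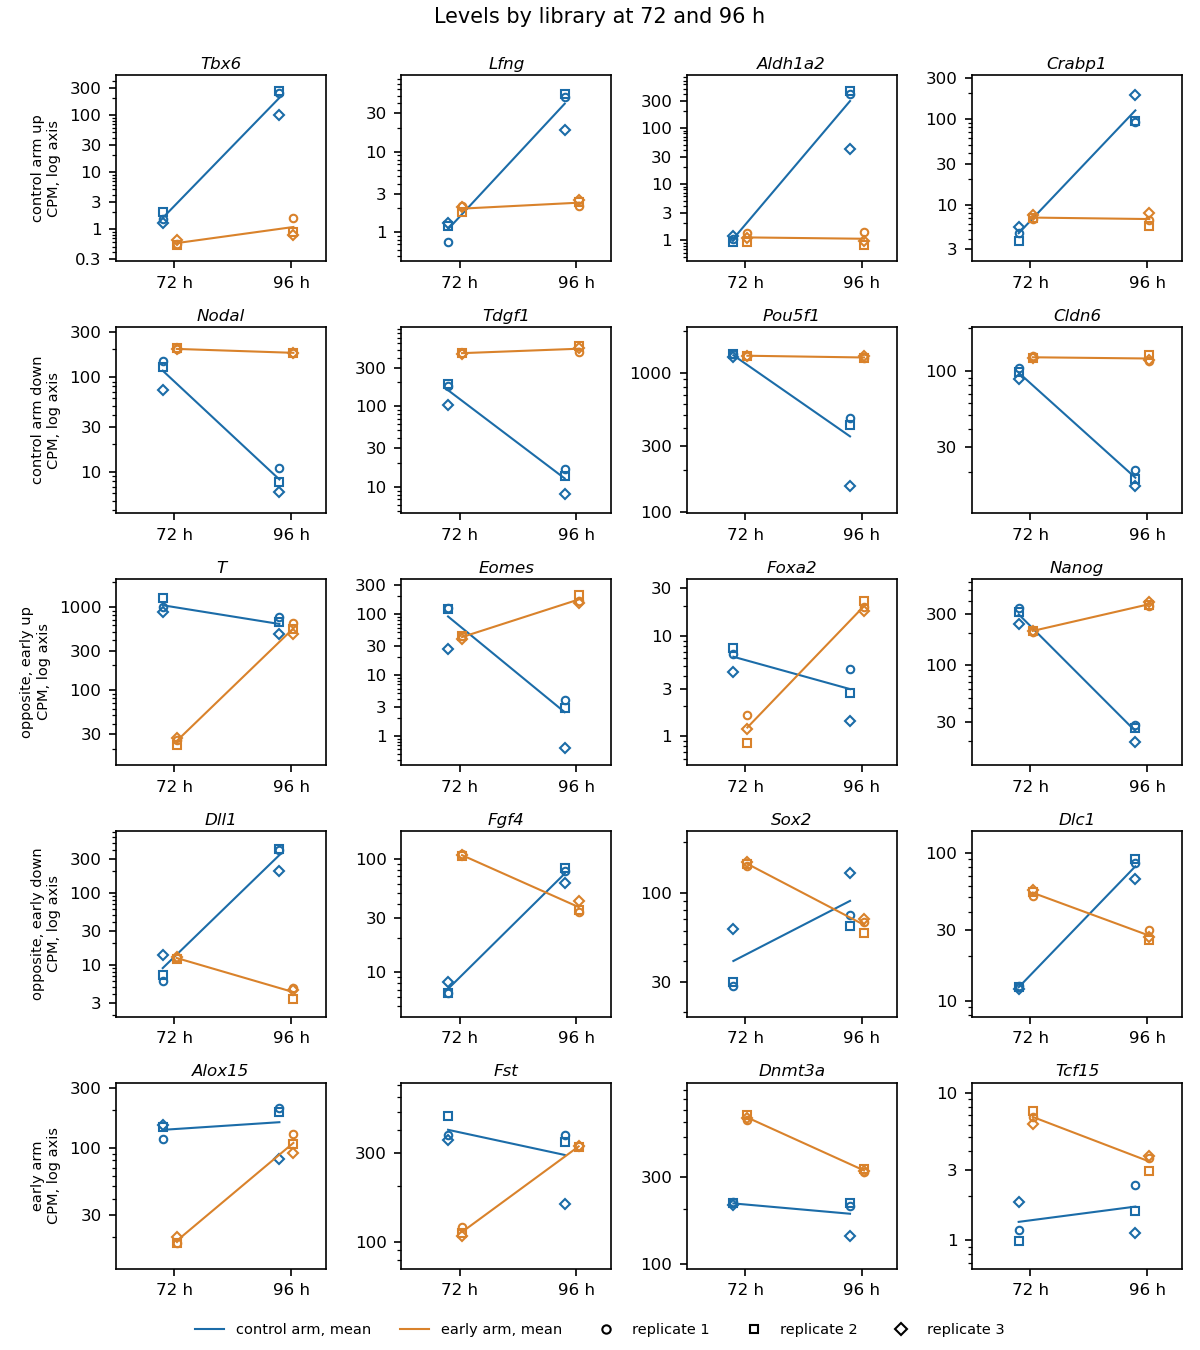
CPM of 20 genes on log axes at 72 and 96 h, 1 marker a library (shape gives the replicate number), control arm in blue and early arm in orange, with lines joining group means; rows hold genes that rose or fell in the control arm, moved in opposite directions, or moved in the early arm. Tbx6 and Aldh1a2 climb in the control arm alone, Nodal and Tdgf1 fall in it alone, and T climbs in the early arm while it falls in the control arm.

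Several Nodal pathway genes fell in the control arm and so gained in the early arm relative to it. Of 11 genes tested, 5 had a positive step difference and 1, the receptor Acvr2b, a negative one. The median was 1.33, with -1.18 in the control arm and -0.14 in the early arm. Nodal (ENSMUSG00000037171.6, chr10:61417972-61425338, + strand), the ligand, fell in the control arm from 148, 129 and 73.8 CPM to 11.1, 7.82 and 6.17. In the early arm it stood at 198, 202 and 196 CPM at 72 h and at 181, 179 and 181 at 96 h. Its step difference was 3.63 ± 0.29 (adjusted p = 3.8e-08), and its early step was -0.14 ± 0.18 (adjusted p = 0.58). Tdgf1, the Nodal co-receptor Cripto, fell from 180.3, 189.9 and 104 to 16.5, 13.5 and 8.17 CPM in the control arm. Early libraries held 461, 463 and 439 CPM of Tdgf1 at 72 h and 471, 553 and 522 at 96 h. The step difference of Tdgf1 was 3.79 ± 0.36 (adjusted p = 2.6e-07), and at 96 h it stood higher in the early arm by 5.31 ± 0.29. The Nodal inhibitor Lefty1 fell in both arms, with a control step of -2.28 ± 0.22 and an early step of -0.96 ± 0.19, with a step difference of 1.33 ± 0.29 (adjusted p = 0.0018). Lefty2, the paired inhibitor, was not called over all libraries (0.51 ± 0.22, adjusted p = 0.089), and was called, at 0.61, when the 96 h early library numbered 2 was left out. Its value without the control libraries numbered 3 was 0.26 (adjusted p = 0.1). Smad7, an inhibitor of the receptors, fell from 21.6, 18.3 and 17.9 to 4.55, 4.07 and 4.3 CPM in the control arm and from 49.6, 48.1 and 50.5 to 35, 34.3 and 37.2 in the early arm.

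Genes of the formative epiblast, the state between naive cells and the streak, fell faster in the control arm. Of 15 genes, 11 had a positive step difference (median 1.00) and 3, Dnmt3a, Tead2 and Sox4, a negative one. Otx2, an epiblast and head factor, fell in the control arm from 30.0, 26.3 and 13 CPM to 2.4, 2.06 and 1.31 and in the early arm from 142, 148 and 149.8 to 96.5, 108 and 109. The step difference of Otx2 was 3.06 ± 0.30 (adjusted p = 4.7e-07). The DNA methyltransferase Dnmt3b fell in both arms, from 1055, 997 and 803 to 285, 285 and 284 CPM in the control arm and from 2213, 2199 and 2169 to 1443, 1544 and 1467 in the early arm. Its relative Dnmt3a fell in the early arm from 619, 653 and 634 to 321, 331 and 325 CPM, and its control step was -0.19 ± 0.10 (adjusted p = 0.11). The POU factor Pou3f1 had a step difference of 0.99 ± 0.16 (adjusted p = 1.2e-04).

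Pluripotency genes split. Of 12 general pluripotency genes, 4 had a positive and 4 a negative step difference. Pou5f1, which encodes OCT4, fell in the control arm from 1369, 1360.0 and 1297 CPM to 474, 425 and 154, while its early groups, at 1324, 1337 and 1334 (72 h) and 1281, 1274 and 1326 (96 h), overlapped. The step difference of Pou5f1 was 1.89 ± 0.32 (adjusted p = 1.8e-04), and 1.56 without the control libraries numbered 3. L1td1, an RNA-binding protein of pluripotent cells, fell in both arms, with a control step of -3.73 ± 0.16 and an early step of -0.42 ± 0.14, with a step difference of 3.31 ± 0.20 (adjusted p = 1.1e-09). Nanog and Sox2 moved in opposite directions in both arms and against each other, as described with those classes. Of 15 naive genes, 4 rose and 7 fell in the control arm, and 0 rose and 10 fell in the early arm. A positive step difference was called for 3 of the 15, among them Esrrb and Dppa5a, and a negative one for 5. Over all genes 17.8% were called positive and 15.7% negative. The step difference was 0.92 ± 0.17 (adjusted p = 4.6e-04) for Esrrb and 0.82 ± 0.14 (adjusted p = 1.5e-04) for Dppa5a. Zfp42, which encodes REX1, fell in both arms, with a control step of -0.92 ± 0.10 and an early step of -0.63 ± 0.08, and its step difference of 0.30 ± 0.12 did not pass the test (adjusted p = 0.069), but did, at 0.36, without the 72 h control library numbered 2 and, at 0.38, without the 96 h early library numbered 2. Without the control libraries numbered 3 the value for Zfp42 was 0.14 (adjusted p = 0.38). Prdm14, a repressor of differentiation, rose in the control arm from 0.32, 0.469 and 0.13 to 2.84, 2.61 and 1.06 CPM.

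Epithelial junction genes gained in the early arm relative to the control arm. Of 15 genes, 9 had a positive step difference and 3, among them Cldn4 and Dsp, a negative one. The median step was -0.83 in the control arm and 0.09 in the early arm. Cldn6, a claudin of tight junctions, fell in the control arm from 106, 99 and 88.9 CPM to 20.8, 18 and 16.2, and its early groups overlapped, at 127, 124 and 125 (72 h) and 117, 131 and 121 (96 h). Its step difference was 2.38 ± 0.12 (adjusted p = 5.8e-11). E-cadherin, Cdh1, fell from 713, 750.1 and 677 to 403, 380.2 and 194 CPM in the control arm, with the library numbered 3 lowest, and its early libraries held 793, 782 and 794 (72 h) and 665, 732 and 653 (96 h). The splicing factor of epithelial isoforms, Esrp1, and the polarity protein Crb3 had step differences of 1.22 ± 0.12 (adjusted p = 2.5e-07) and 2.35 ± 0.20 (adjusted p = 7.4e-08). Cldn7 rose in the early arm, by 0.47 ± 0.12, and fell in the control arm, where its step was -2.61 ± 0.14. Krt18, an epithelial keratin, was not called, with 0.26 ± 0.19 (adjusted p = 0.33), and without the 96 h control library numbered 1 it passed the test at 0.48. Without the control libraries numbered 3 it was 0.06 (adjusted p = 0.77), and 0.082 without the one at 96 h alone. The call of Cldn4, at -0.75, was lost at -0.56 and -0.67 without the 96 h control library numbered 1 or 2, and at -0.64 without the 96 h early library numbered 2. Outside the lists, Grm6, a glutamate receptor, fell from 42.6, 34.6 and 18.5 to 2.76, 1.57 and 1.25 CPM in the control arm, and Mmp25, a membrane-bound protease, had a step difference of 3.30 ± 0.18 (adjusted p = 2.9e-10).

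**Figure D4:**
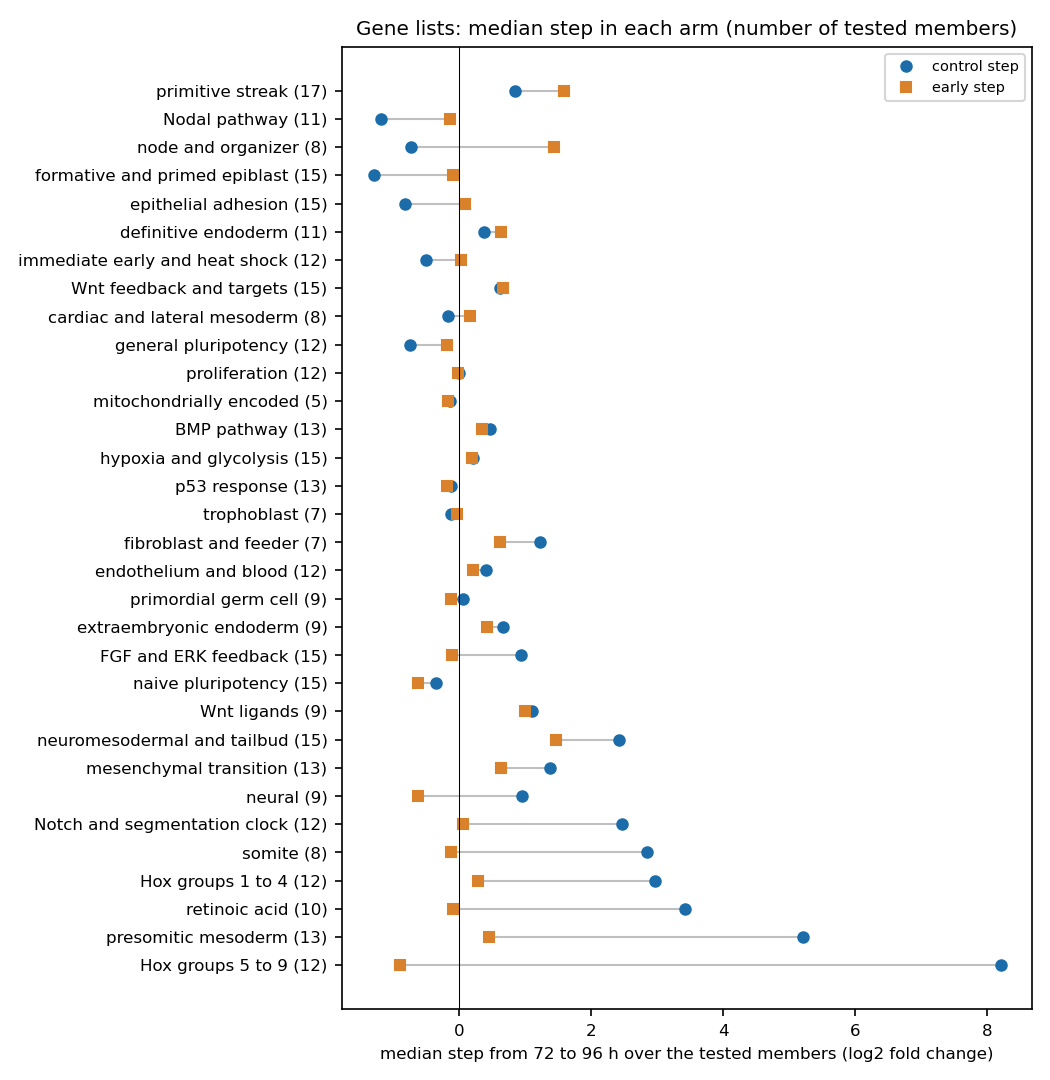
Median log2 step from 72 to 96 h in the control arm (circles) and the early arm (squares) for each gene list, sorted by the median step difference. Hox groups 5 to 9 and the presomitic list have control medians of 8.20 and 5.21 far to the right of their early medians, and the streak list has the early median, 1.58, to the right of the control median, 0.84.

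Primitive streak genes changed in both arms. Of the 17 tested, 10 rose and 1 fell in the early arm, and 9 rose and 6 fell in the control arm. Of the 17, 9 had a positive step difference and 4, Tbx6, Pdgfra, Bmp4 and Mesp2, a negative one, with a median of 1.54. T (ENSMUSG00000062327.10, chr17:8434423-8442496, + strand), which encodes Brachyury, was high in the control libraries at 72 h, at 1008, 1263 and 872 CPM, and lower at 96 h, at 747, 653 and 473. In the early arm it stood at 25.5, 21.9 and 26.9 CPM at 72 h and at 641, 541 and 478 at 96 h. The groups of each arm did not overlap, and at 96 h the libraries of the arms did. T rose by 4.49 ± 0.18 in the early arm (adjusted p = 2.8e-11) and fell by 0.75 on the log2 scale in the control arm, and its step difference was 5.24 ± 0.23 (adjusted p = 1.2e-11). The gap between the arms was -5.41 at 72 h, and at 96 h it was -0.18 ± 0.15 (adjusted p = 0.32).

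Eomes and Mixl1 moved with T. Eomes (ENSMUSG00000032446.14, chr9:118478212-118486132, + strand), the T-box factor of the early streak and endoderm, fell in the control arm from 125, 123 and 26.3 CPM to 3.86, 2.88 and 0.624 and rose in the early arm from 43, 44.4 and 38.5 to 165, 202 and 154. Its step difference was 7.17 ± 0.60 (adjusted p = 5.9e-08). The early-minus-control gap of Eomes was -1.13 at 72 h and 6.04 at 96 h, so its sign turned. The homeobox gene Mixl1 rose in the early arm from 1.84, 1.87 and 1.67 CPM to 26, 33.6 and 18.3, and its control groups, at 89.3, 134 and 22 (72 h) and 44.1, 43.8 and 9.79 (96 h), overlapped. The control libraries numbered 3 were the lowest at both ages for Mixl1 and Eomes, and without them the step differences were 5.20 and 7.21, against 5.16 and 7.17 with them.

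Genes of the node and organizer, the anterior end of the streak, also gained in the early arm, where 5 of the 8 tested rose. Of the 8, 4 had a positive step difference and Nog, a BMP antagonist, a negative one. Gsc, the organizer homeobox gene, fell in the control arm from 5.92, 5.99 and 0.715 CPM to 0.447, 0.109 and 0.312 and rose in the early arm from 0.198, 0.163 and 0.477 to 4.48, 6.54 and 4.22. Foxa2, a factor of the endoderm, node and notochord, rose in the early arm from 1.64, 0.856 and 1.19 CPM to 19.6, 22.6 and 17.8, while its control groups, at 6.72, 7.66 and 4.35 (72 h) and 4.76, 2.71 and 1.43 (96 h), overlapped. The step differences were 8.04 ± 0.85 (adjusted p = 1.0e-06) for Gsc and 5.06 ± 0.44 (adjusted p = 8.6e-08) for Foxa2. Chrd, the BMP antagonist chordin, rose in the early arm, by 1.45 ± 0.16, and fell in the control arm, where its step was -0.91 ± 0.17. Foxj1, which directs motile cilia, fell in the control arm, with a step of -1.47 ± 0.28, and had an early step of 0.42 ± 0.20 (adjusted p = 0.11). Endoderm genes did not move as a group: of 11 tested, 3 had a positive and 2 a negative step difference, the latter Cxcr4 and Sox17, an endoderm factor that rose in the control arm from 0.16, 0.521 and 0.325 to 4.63, 2.77 and 2.43 CPM.

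The opposite-moving genes also held Wnt ligands and factors of pluripotency. Wnt3, the ligand that starts the streak, fell in the control arm from 62.8, 53.3 and 33.5 CPM to 6.26, 5.21 and 2.31 and rose in the early arm from 16.8, 18 and 16.4 to 51.4, 54.3 and 47.8. Wnt11, a ligand of cell movement, rose in the early arm from 0.496, 0.611 and 0.775 to 5.19, 6.44 and 5.72 CPM and fell in the control arm from 4.26, 4.48 and 2.73 to 0.65, 0.706 and 0.436. The step differences were 4.97 ± 0.31 (adjusted p = 1.4e-09) and 5.86 ± 0.40 (adjusted p = 4.5e-09). Nanog fell in the control arm from 342, 313 and 242 CPM to 28.2, 26.1 and 19.3 and rose in the early arm from 207, 211 and 210.4 to 356, 367 and 392. Fgf5, a ligand of the epiblast, rose in the early arm from 89.3, 89.7 and 83.8 to 146, 163 and 146 CPM and was at 92.7, 94.8 and 35.9 and then 4.27, 3.91 and 0.998 in the control arm. No early library of either gene overlapped the other early group. The step differences were 4.42 ± 0.17 (adjusted p = 2.2e-12) for Nanog and 5.33 ± 0.41 (adjusted p = 2.2e-08) for Fgf5. Among the largest step differences of the class were Mab21l2, at 6.23 ± 0.51 (adjusted p = 4.6e-08), and Tgfbr3, the TGF-β co-receptor betaglycan, at 5.34 ± 0.25 (adjusted p = 4.6e-11). The smooth muscle gene Tagln and the immediate early gene Egr1 had the same pattern, with early steps of 1.18 ± 0.17 and 0.64 ± 0.22, although the early groups of Egr1 overlapped. Hes1 rose in the early arm, by 0.92 ± 0.11, and its control step was -0.35 ± 0.11 although the control groups overlapped.

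The reverse pattern, up in the control arm and down in the early arm, took in Notch and FGF ligands. Dll1 (ENSMUSG00000014773.13, chr17:15367354-15376872, - strand), the Notch ligand of the presomitic mesoderm, rose in the control arm from 6.02, 7.35 and 13.9 CPM to 400.0, 411 and 200.2 and fell in the early arm from 12.6, 12 and 13.1 to 4.81, 3.41 and 4.45. Its step difference was -6.82 ± 0.40 (adjusted p = 7.3e-10). Fgf4, a ligand of both pluripotent cells and the streak, rose in the control arm from 6.5, 6.57 and 8.25 CPM to 78.2, 82.5 and 60.3 and fell in the early arm from 109, 106 and 106 to 34.1, 35.2 and 42.7. Its early-minus-control gap went from 3.92 at 72 h to -0.99 at 96 h. Fgf3 rose in the control arm from 0.32, 0.521 and 0.455 CPM to 54.2, 56 and 40.7, and its early libraries fell from 1.64, 1.3 and 1.91 to 0.718, 0.474 and 1.16. Fgf15 rose from 8.42, 7.66 and 4.35 to 53.4, 53 and 36.9 CPM in the control arm and fell from 44.6, 45.5 and 45.3 to 28.5, 28.7 and 31.6 in the early arm. All 3 ligands sat in separate groups in both arms. Their step differences were -7.90 ± 0.39 (adjusted p = 6.1e-11) for Fgf3, -4.91 ± 0.16 (adjusted p = 3.2e-13) for Fgf4 and -3.40 ± 0.21 (adjusted p = 1.4e-09) for Fgf15. Of 15 FGF and ERK feedback genes, 7 had a negative and 3 a positive step difference, and 6 were in the opposite class. Dusp4, a phosphatase induced by ERK, rose by 1.41 ± 0.10 in the control arm and fell by 0.68 in the early arm.

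Sox2, shared by pluripotent and neural cells, rose in the control arm from 28.5, 29.9 and 61.1 CPM to 74.7, 63.9 and 131 and fell in the early arm from 144, 148 and 153 to 67.1, 57.9 and 69.9. The control library numbered 3 was the highest at both ages, and the step difference was -2.38 ± 0.34 (adjusted p = 3.2e-05), or -2.45 without those libraries. The early-minus-control gap of Sox2 went from 1.91 at 72 h to -0.46 ± 0.24 at 96 h (adjusted p = 0.1). Fibronectin, Fn1, rose in the control arm from 226, 231 and 211 CPM to 1880.1, 2115 and 687 and fell in the early arm from 428, 458 and 449 to 272, 277 and 233. The GTPase regulator Dlc1 and the ubiquitin ligase Peli3 had step differences of -3.68 ± 0.13 (adjusted p = 1.5e-12) and -4.20 ± 0.27 (adjusted p = 1.8e-09). The integrin subunit Itga6 moved less, by 0.83 ± 0.05 in the control arm and -0.35 ± 0.05 in the early arm.

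A smaller set moved in the early arm alone. Alox15, a lipoxygenase, rose in the early arm from 18, 17.8 and 20.1 CPM to 129.6, 109 and 91.6, and its control groups overlapped, at 119, 147 and 152 (72 h) and 207, 191 and 81.9 (96 h). Fst rose from 119.6, 111 and 108 to 329, 322 and 327 CPM in the early arm, into the range of the control libraries at 374, 476 and 351 (72 h) and 377, 343 and 159.8 (96 h). Cdh13, a cadherin held by a lipid anchor, the mechanosensitive channel Piezo2 and the receptor Kit did the same, with step differences of 2.11 ± 0.30 (adjusted p = 2.8e-05), 1.95 ± 0.33 (adjusted p = 1.7e-04) and 0.95 ± 0.13 (adjusted p = 2.7e-05). In each of these 5 genes the early arm started below the control arm at 72 h and the gap was smaller at 96 h. In the other direction, the glutathione peroxidase Gpx2, the matrix protein gene Cilp2, the somite factor Tcf15 and the neuronal tubulin Tubb3 fell only in the early arm by this test, with step differences of -1.56 ± 0.37 (adjusted p = 0.0035), -1.43 ± 0.36 (adjusted p = 0.0055), -1.43 ± 0.32 (adjusted p = 0.002) and -0.80 ± 0.19 (adjusted p = 0.003).

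Most Wnt feedback genes and tailbud genes rose in both arms, and for several the early step was the larger. As a list, the 15 neuromesodermal and tailbud genes moved more in the control arm. Their median step was 2.43 there and 1.47 in the early arm, where 11 rose and 2 fell. Their median step difference was -0.77, with 3 positive and 5 negative calls. Sp5 (ENSMUSG00000075304.2, chr2:70474923-70477729, + strand), a direct Wnt target that represses others, rose in the control arm from 50.9, 56.3 and 49 CPM to 106, 95.7 and 94 and in the early arm from 4.76, 4.24 and 4.35 to 23, 27.7 and 22.8. Its step difference was 1.54 ± 0.22 (adjusted p = 4.6e-05), and its early-minus-control gap went from -3.55 at 72 h to -2.01 at 96 h. Evx1, a homeobox gene of the posterior streak, rose in the early arm from 3.72, 2.61 and 2.15 to 21.4, 27.2 and 19.8 CPM and had a step difference of 2.37 ± 0.41 (adjusted p = 2.4e-04). Fgf8, the ligand of the tailbud, rose in the early arm from 11.3, 10.4 and 11.5 CPM to 64.9, 63.9 and 53.9, while its control groups, at 43.2, 51.1 and 48.1 (72 h) and 63.1, 50.8 and 102 (96 h), overlapped. Apln, a peptide ligand, rose by 3.07 ± 0.20 in the early arm and 0.49 ± 0.16 in the control arm, and Bmp7 by 1.48 ± 0.12 and 0.62 ± 0.10. Of 15 Wnt feedback genes, 5 had a positive and 3 a negative step difference, and 11 rose in the control arm and 9 in the early arm. Axin2, the standard readout of the pathway, rose in the control arm from 215, 234 and 196 to 259.7, 267 and 270.1 CPM and in the early arm from 79.4, 82.1 and 81.6 to 121, 124 and 109. Its step difference of 0.24 ± 0.08 (adjusted p = 0.037) lost its call in 9 of 12 fits with a library left out, and kept it without either control library numbered 3 and without the 96 h early library numbered 3. The call was also lost by the DESeq2 Wald test, with DESeq2 size factors and in a fit of only the 12 libraries of the 4 groups. Wnt5a, a noncanonical ligand, rose more in the control arm, with steps of 4.67 ± 0.25 and 0.83 ± 0.32.

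Cdx1, Cdx2 and Wnt3a rose in both arms, and Cdx4 in the control arm, with step differences that did not pass the test. The Cdx genes are caudal homeobox factors of the posterior body, and Wnt3a is a ligand of the tailbud. Cdx2 rose in the control arm from 16.5, 19.8 and 37.8 CPM to 248, 237 and 364 and in the early arm from 0.546, 0.937 and 0.417 to 4.2, 3.27 and 3.18, with a step difference of -1.14 ± 0.68 (adjusted p = 0.22). Without the 72 h control library numbered 3 it was -1.56 and passed, and without all 3 of that number -1.35 (adjusted p = 0.001). Cdx1 had a step difference of 0.30 ± 0.95 (adjusted p = 0.84), which was -0.68 without the control libraries numbered 3, and Cdx4 one of -3.14 ± 2.58 (adjusted p = 0.38), which was -1.64 without the 96 h control library numbered 3 and -1.85 (adjusted p = 0.057) without all 3 of that number. Wnt3a went from 7.52, 10.9 and 7.6 to 134, 136 and 138 CPM in the control arm and from 0.347, 0.163 and 0.0596 to 1.71, 2.42 and 1.27 in the early arm, with a step difference of -0.77 ± 0.64 (adjusted p = 0.38). These errors were wide. The step difference was -0.02 ± 0.14 for Nkd1, a Wnt inhibitor, and 0.17 ± 0.22 for Nkx1-2, a tailbud homeobox gene, both chosen after their values were seen. Without the control libraries numbered 3 the value for Nkx1-2 was -0.02 (adjusted p = 0.93). For all 6 genes the early-minus-control gap was negative at both ages, and it passed the test in each case but that of Cdx4 at 72 h (adjusted p = 0.055).

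The promoters of 4 of these genes are shown because their transcripts took different courses: T and Sp5 rose in the early arm, Tbx6 rose in the control arm, and Nodal fell in it. Each is the 250 bases before the RefSeq start of the gene, 5′ to 3′ on the + strand of GRCm38.p6, with the letters CTTTGA or TCAAAG, the core of a TCF/LEF motif on either strand, in capitals; TCACAC or GTGTGA, the core of a T-box motif, was searched as well and is in none of the 4.
T at chr17:8434173-8434422: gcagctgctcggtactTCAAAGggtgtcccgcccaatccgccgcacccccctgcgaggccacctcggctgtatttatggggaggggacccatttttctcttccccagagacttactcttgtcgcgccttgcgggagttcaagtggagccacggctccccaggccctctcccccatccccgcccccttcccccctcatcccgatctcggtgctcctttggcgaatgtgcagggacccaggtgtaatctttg
Sp5 at chr2:70474673-70474922: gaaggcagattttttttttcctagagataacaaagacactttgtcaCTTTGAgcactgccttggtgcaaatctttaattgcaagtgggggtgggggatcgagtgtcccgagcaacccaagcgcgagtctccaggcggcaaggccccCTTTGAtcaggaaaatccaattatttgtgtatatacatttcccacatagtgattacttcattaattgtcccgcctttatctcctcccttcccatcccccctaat
Tbx6 at chr7:126781233-126781482: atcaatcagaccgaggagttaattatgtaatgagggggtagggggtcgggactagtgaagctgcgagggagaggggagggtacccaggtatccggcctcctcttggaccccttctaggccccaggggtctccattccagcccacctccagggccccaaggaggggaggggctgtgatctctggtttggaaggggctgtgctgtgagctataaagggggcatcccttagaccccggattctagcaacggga
Nodal at chr10:61417722-61417971: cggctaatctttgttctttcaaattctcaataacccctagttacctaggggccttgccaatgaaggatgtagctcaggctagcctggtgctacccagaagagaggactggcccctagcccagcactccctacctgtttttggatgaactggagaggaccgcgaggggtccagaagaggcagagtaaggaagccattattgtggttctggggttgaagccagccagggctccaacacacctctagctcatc
The T window held 1 TCF/LEF match and the Sp5 window 2, and the windows of Tbx6 and Nodal held none. A match describes letters, not a bound site. The TCF/LEF letters were in 13.8% of all 32851 RefSeq promoters of this length and in 10.7% of those of tested genes. Among genes with a step difference of at least 2-fold, they were in 13.2% of 439 promoters with a positive and 9.45% of 603 with a negative value in the control-arm class. In the opposite class the shares were 10.1% of 198 promoters for positive and 21.2% of 132 for negative values. In the other classes they ranged from 6.25% to 14.7%, some of them over few promoters. Letters for caudal, SOX, E-box, POU and FOXH1 motifs were also counted and are not given, and no share was tested. The T-box letters were in 12.3% of all promoters and 9.33% of those of tested genes, and in 0% to 17.1% over the classes and directions. The TCF/LEF letters share CTTTG with the core of a SOX motif, CTTTGT, which is not marked.

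Most lists for stress, RNA quality and other cell types had few or mixed calls. Over all tested genes, 17.8% were called positive and 15.7% negative. The proliferation list, 12 genes, had a median step difference of 0.00, with 1 positive and 2 negative calls, and the list of 13 p53 targets had 3 positive and 2 negative calls. Among them Cdkn1a, which encodes the cell cycle inhibitor p21, fell in the control arm from 450.2, 458 and 494 to 214, 206 and 169.9 CPM, and its early groups overlapped. Of 5 mitochondrially encoded genes, 0 were called by edgeR's quasi-likelihood test, 0 at an unadjusted p under 0.05 and 0 by DESeq2, with a median of -0.01. The immediate early and heat shock list was not mixed: of 12 genes, 4 had a positive step difference, among them Egr1, and 0 a negative one. In the control arm 1 of them rose and 6 fell, and in the early arm 3 rose and 0 fell. Without the control libraries numbered 3 the list had 5 positive and 2 negative calls. The hypoxia and glycolysis list, 15 genes, had 1 positive call, Slc16a3, and 3 negative ones, among them Slc2a1, and 6 negative ones without the control libraries numbered 3. Markers of fibroblasts had 3 positive and 2 negative calls among the 7 of 10 tested, a larger share than the 33.6% called over all genes. Their levels summed to 30.0 to 35.8 CPM at 72 h and 46.3 to 76.4 at 96 h in the control arm, and to 20.7 to 23.4 and 31.8 to 37.6 in the early arm. Col3a1, Lum and Postn did not pass the filter on low counts, and the part of this list in the other results was not tested.

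The remaining lists were mixed. Of 13 BMP pathway genes, 4 had a positive and 4 a negative step difference. Bmp4, the ligand, was among the negative ones, with a control step of 0.86 ± 0.19 and an early step of -0.18 ± 0.17 (adjusted p = 0.45). Of 9 Wnt ligands, 2 were positive and 4 negative, and of 15 neuromesodermal and tailbud genes 3 were positive and 5 negative. The list of primordial germ cell genes, 9 in all, had 3 calls in each direction. Among 12 endothelial and blood genes 2 were positive and 3 negative, and among 8 cardiac and lateral mesoderm genes 2 and 2. The 7 trophoblast genes had 1 call in each direction, Eomes and Tfap2c. Of 9 extraembryonic endoderm genes, Pdgfra and Lamb1 had a negative step difference and the other 7 were not called.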

How the data were processed

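PolyA RNA of pooled wild-type gastruloids was sequenced in 18 libraries, and the 12 libraries aged 72 and 96 h were compared. Per the submitters' processing notes, the tools were cutadapt 4.0, STAR 2.7.8a and Cufflinks 2.2.1, with the genome build mm10. How reads were counted, strand included, is not given in the sources used here, and overlapping and antisense genes may share reads. The deposited table holds raw counts of 55385 genes, as whole numbers, and the authors' second table holds FPKM values, scaled by length and depth, of 55468 genes. The top 10 genes took 4.39% to 5.32% of the counts. Positions were read from the FPKM table (mm10), with 1 added to starts that count from 0.

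Genes were filtered with filterByExpr, scaled by TMM and fitted once over all 18 libraries, 1 coefficient a group, with edgeR's quasi-likelihood test (edgeR 4.0.16, limma 3.58.1, R 4.3.3), 2-sided, with Benjamini-Hochberg adjustment over the 16041 genes tested. The comparison used 5 contrasts: both steps, both gaps between the arms and the step difference. The SE is the size of the log2 value divided by the square root of F, and it can be too small near 0 counts. Calls were made at an adjusted p under 0.05, and a group at or under 3 counts in sum was treated as at the floor. The script was tested on simulated data. DESeq2 1.42.0, other filters, the FPKM values and left-out libraries served as alternatives.

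Genes were named where they held 1 of the 4 largest step differences of a class and direction (at least 5 CPM in a group and 1 CPM in every group), 1 of the 4 lowest p-values of a list, a place in a panel of 41 genes, or a call against their list's majority. Results for a few genes are not reported here. Members, lists and rules were chosen with earlier results of these data known. Promoters come from RefSeq, of which 14751 belonged to tested genes. Figures used Python 3.11.15 and matplotlib 3.10.9.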

Additional observations from a re-analysis of the deposited data

Results flagged for a closer look

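Results are listed here where the arms moved differently by a test of the difference itself. The first is the whole set of 5383 genes with a called step difference. The others are the genes named here whose arms moved in opposite directions, each step passing the test, with the early-minus-control step difference in log2 units.

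Streak and organizer genes that rose in the early arm and fell in the control arm were T (5.24), Eomes (7.17), Mixl1 (5.16), Gsc (8.04), Foxa2 (5.06) and Chrd (2.36). Signalling genes of the same pattern were Wnt3 (4.97), Wnt11 (5.86), Fgf5 (5.33), Tgfbr3 (5.34) and Hes1 (1.28). Nanog (4.42), Mab21l2 (6.23), Cldn7 (3.08), Tagln (2.99), Egr1 (2.47) Slc16a3 (0.64) and Flt1 (1.77) shared it.

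Genes that fell in the early arm and rose in the control arm were the ligands Dll1 (-6.82), Fgf3 (-7.90), Fgf4 (-4.91) and Fgf15 (-3.40). The others were the factors Sox2 (-2.38) and Pax6 (-2.82), and Fn1 (-3.58), Dlc1 (-3.68), Peli3 (-4.20), Dusp4 (-2.08) and Itga6 (-1.18).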

How the results depend on the processing

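Among the 5383 genes called, 5 were called with the opposite sign on log2(FPKM + 0.1), 7 on log2(FPKM + 1) and 6 on log2(FPKM + 1) over all genes, and 0 in the other fits. Of the values for named genes under the alternatives, 2600 kept their side of the threshold, 123 lost the call and 33 gained it. The other 3 are those of Aplnr, uncalled at 1.00 and called at -1.77 on log2(FPKM + 0.1) and at -3.21 on log2(FPKM + 1), with and without a filter. The step difference was positive for 3408 and negative for 3220 genes without the 3 control libraries numbered 3, and 5087 of the 5383 genes were also called then; the opposite class then held 1033 and the same-direction class 1510 genes. Counting a step as moved only at 2-fold gave 1504 genes in the control-arm class, 200 in the early-arm class, 88 opposite, 76 same-direction and 3515 with neither. Testing against a 2-fold threshold left step differences of 342 positive and 365 negative genes, control steps of 773 higher and 587 lower, early steps of 63 and 46, gaps of 522 and 204 at 72 h and of 964 and 836 at 96 h, and classes of 540 (control), 22 (early), 9 (opposite) and 2 (same direction). On FPKM values, early steps downward numbered 1571 with a pseudocount of 0.1, 1659 with 1 and 1595 with 1 over all genes, where the same-direction class held 492. The causes were not tested. The log2(FPKM + 1) scale understates changes of low genes by construction.

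Leaving out single libraries gave step differences of 2529 to 3198 genes higher and 2104 to 2872 lower, control steps of 4110 to 4620 higher and 3905 to 4524 lower, and early steps of 2212 to 3450 higher and 2211 to 3298 lower. Gaps ranged from 3030 to 4016 higher and 3007 to 4046 lower at 72 h, and from 4391 to 4921 and 4374 to 4900 at 96 h. The classes held 2514 to 2958 (control), 615 to 928 (early), 459 to 842 (opposite), 610 to 1280 (same direction) and 133 to 169 genes (neither). Whether replicate numbers paired the samples was not settled. Over 18 pairs the correlation of same-numbered deviations was weak, from -0.060 to 0.112, and 2 were over 0.1. Still, 8 of 12 libraries were nearest to their own number. With the replicate number as a block, 2951 genes were positive and 2644 negative, and 5280 of the 5383 were shared. Wnt3a, Hey2 and Zfp42 were called in at least 1 FPKM setting, Msgn1 on FPKM values and by the DESeq2 Wald test, and Cdx2 and Cdx4 on FPKM values, by the DESeq2 Wald test and with no filter. Esrrb, Slc16a3, Gpx2, Fgd5, Cldn4, Lamb1, Mesp2, Msx1, Nog, Sox1 and Tead2 lost their call in at least 1 FPKM setting. Single libraries also ended the calls of Mesp2 (-1.68 without the 96 h control library numbered 2) and Nog (-4.22 without the 72 h early library numbered 2). A fit of only the 12 libraries of the 4 groups ended the calls of Hoxb9, Axin2, Sox1, Msx1, Cldn4 and Fgd5, and Lefty2 was called in it. Depth limited genes near 0 counts: 71 called genes had a group at or under 3 counts.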

Other observations

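Several genes outside the groups above had steps of their own. Bmp5, a BMP ligand, rose in the early arm by 2.58 ± 0.49 from a low level, with 0.149, 0.122 and 0.119 CPM at 72 h and 0.939, 0.805 and 0.693 at 96 h, and its control step was -0.22 ± 0.32 (adjusted p = 0.58). Id1, a target of BMP signalling, rose in both arms, by 3.34 ± 0.25 in the control arm and 1.49 ± 0.29 in the early arm. Msx1, another BMP target, rose in the control arm from 6.24, 6.77 and 2.47 to 11.9, 10.6 and 56 CPM and had a step difference of -1.96 ± 0.73 (adjusted p = 0.047). One library, the 96 h control library numbered 3, was far above the others, and without it the value was -0.76 and not called. Without all 3 control libraries of that number it was -0.47 (adjusted p = 0.057), and the call was lost in 9 of the 12 fits with a single library left out, with the replicate number as a block (adjusted p = 0.077) and on FPKM values. Aplnr, the receptor for the peptide made from Apln, rose in both arms, by 5.46 ± 0.39 and 6.47 ± 1.04, and its step difference of 1.00 ± 1.84 did not pass the test (adjusted p = 0.72). Its 3 early libraries at 72 h held 4 counts in all, and on the log2(FPKM + 1) scale the step difference was -3.21 (adjusted p = 0.00013), called with the opposite sign.

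Chrna9, a nicotinic receptor subunit, fell in the control arm from 10.1, 12.6 and 10.3 to 2.64, 1.52 and 0.561 CPM and had a step difference of 3.30 ± 0.40 (adjusted p = 5.0e-06). Bcl11b, a zinc finger factor, fell from 17, 15.1 and 10.7 to 1.5, 1.19 and 0.686 CPM in the control arm and had a step difference of 3.09 ± 0.30 (adjusted p = 4.2e-07). Flt1, a VEGF receptor, moved in opposite directions, with a control step of -1.14 ± 0.18 and an early step of 0.63 ± 0.14. By biotype, 4950 of 13651 protein-coding genes tested and 70 of 358 lincRNA genes had a called step difference, against 5383 of 16041 (33.6%) over all genes. The biotypes were not compared by a test, and their levels were not matched.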
